A study of Drosophila melanogaster with 4 samples.

Results

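Strong but narrow regions of H3K79me3, the trimethylated form of lysine 79 on histone H3, were taken from a ChIP-seq map of Drosophila melanogaster larvae in the third instar, the last larval stage (strain Oregon-R, wild type). They were selected on 2 values that the authors deposited for each enriched region of the series-wide list. The width had to be over 1300 and under 5000 bp, and the score at or above 1.26, the 75th percentile of all enriched regions in that list. This gave 264 of 5331 enriched regions, or 4.95%. The same width range held 2593 other enriched regions with lower scores, called the weaker narrow regions here. The labels describe 4 samples, 2 ChIP libraries made with an Abcam antibody against H3K79me3 and 2 input libraries of unselected chromatin, all from the same strain, genotype and stage. Each ChIP replicate has its own region list, of 5114 enriched regions in replicate 1 and 4689 in replicate 2. Nothing in the labels states if each replicate was collected on its own, and the spread between them may be technical. Values of the input libraries were not analysed here. Larvae were harvested from bottles and homogenised, per the labels' protocols, with no tissue named, so a region sums over tissues and animals. The number of reads behind a region is unknown, because region lists hold no counts.

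Methylation of H3 lysine 79 is carried out by Dot1, known in flies as grappa, an enzyme that acts on the globular part of the histone rather than on its tail. The mark is best known from the early part of transcribed gene bodies, where it commonly spreads downstream from the start of the gene, and its levels generally follow transcription. Genes under the regions were not analysed here, since coordinates are on FlyBase release 5 and no annotation or sequence of that release was used.

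Most of the high-scoring signal lay in wider regions, and the narrow ones formed a minority of it. Of the 1333 regions at or above the threshold (25% of all, by construction), 264 (19.8%) were in the width range, 1065 were wider and 4 were narrower. The strong narrow regions had a median width of 3905 bp (quartiles 3216 and 4480 bp) and a median score of 1.50 (quartiles 1.35 and 1.71, highest 2.40). Their score was weakly related to their width (Spearman's rho 0.17 over 264 regions, a description, since both values chose them). The weaker narrow regions were narrower, with a median of 2351 bp, and had a median score of 0.450. The lower score follows from the selection. The width limits were the same for both sets, and the share of strong regions rose with width, as given next.

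Strong scores were almost absent below 2000 bp. Of the 877 regions of the range under 2000 bp, 1 reached the threshold. Above that it was 41 of 968 (4.24%) from 2000 bp, 105 of 603 (17.4%) from 3000 bp and 117 of 409 (28.6%) from 4000 bp, each group ending where the next begins and the last at 5000 bp. The relation of score to width also changed there. Spearman's rho was 0.15 over the 877 regions under 2000 bp, 0.49 over the next 968, and 0.14 and 0.10 over the 2 wider groups. Just inside the threshold were regions on chromosome 4 from 328042 to 331318 (score 1.265), on 3R from 22277504 to 22279912 (1.267) and on 3L from 21544752 to 21548778 (1.269). Just outside it were 2L from 6911668 to 6914840 (1.262), 3L from 12114880 to 12119042 (1.262) and 2L from 12018576 to 12021668 (1.261). The threshold thus cut through a continuous range of scores.

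**Figure D1:**
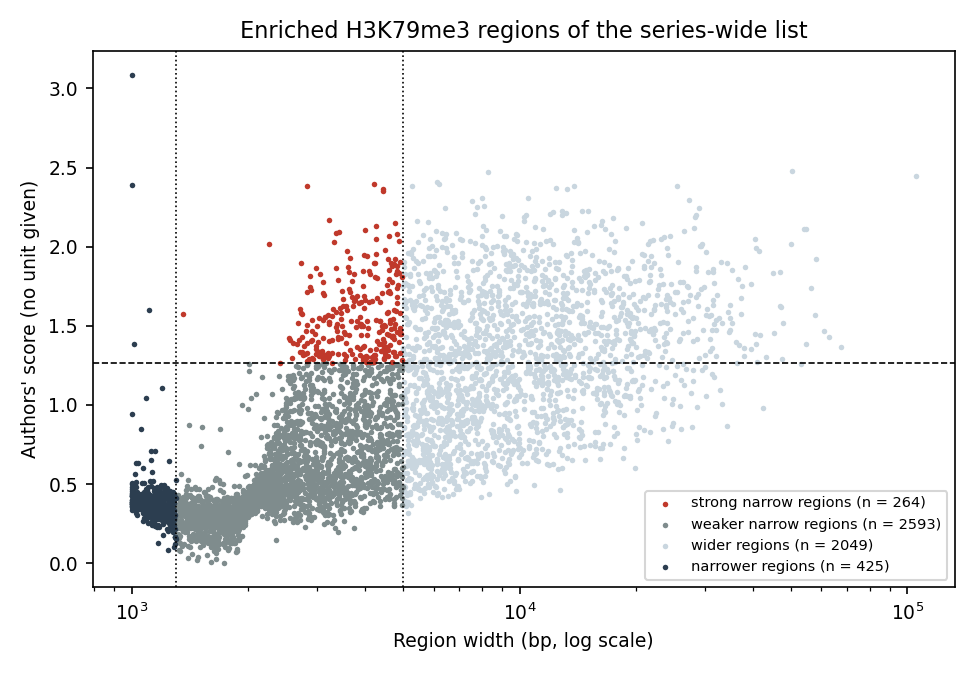
Authors' score (no unit given) against width (bp, log scale) for each of the 5331 enriched regions of the series-wide list. The dashed line is the score threshold of 1.26 and the dotted lines are the width limits of the range. The 264 strong narrow regions (red) lie nearly all above 2000 bp, and a single one, 1355 bp wide, stands to the left of the rest.

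The strong narrow regions were found almost without exception in both ChIP replicates. Of the 264, 263 (99.6%, 95% Wilson interval 97.9 to 99.9%) overlapped by at least 1 bp a region of the replicate 1 list and a region of the replicate 2 list, and the remaining one met neither. Of the 2593 weaker narrow regions, 1689 (65.1%, 63.3 to 66.9%) met both, 428 were only in replicate 1, 173 only in replicate 2 and 303 were in neither list. Over all enriched regions of the series-wide list the share in both replicates was 75%, and over all regions of the same width range it was 68.3%. The 1065 wider regions at or above the same score threshold all met both lists, so presence in both is not particular to the narrow ones. Here and below, intervals cover counting error over regions only. The lists share libraries as far as the labels show and the rule used the series-wide score, so these shares are a description.

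Within groups of like width the gap between strong and weaker narrow regions was smaller. From 2000 to under 3000 bp, 41 of 41 strong regions and 744 of 927 weaker ones (80.3%) met both replicates. From 3000 to under 4000 bp it was 105 of 105 strong and 457 of 498 weaker regions (91.8%). From 4000 to under 5000 bp it was 117 of 117 strong and 286 of 292 weaker regions (97.9%). Under 2000 bp the single strong region met neither list, and 202 of 876 weaker ones (23.1%) met both.

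The strong region found in neither replicate was also the narrowest. It lay on 2L from 21539842 to 21541196, was 1355 bp wide and scored 1.57, rank 672 in the series-wide list. Its nearest enriched neighbours were 58.7 kb upstream and 31.6 kb downstream in the coordinates of the arm. The replicate lists hold 0 regions of 1300 bp or less, so a region this narrow lay close to the smallest width they list.

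Coverage in the replicates was nearly complete and in single pieces. The replicate 1 list covered a median of 97.9% of each strong narrow region and the replicate 2 list 96.9%. For the wider regions at or above the same score threshold the medians were 98.4% and 98.0%. At least 90% of the length was covered in both replicates in 232 of 264 strong regions (87.9%) and in 706 of 2593 weaker ones (27.2%). The weaker count includes regions that did not meet both lists. Neither coverage nor the edges described below were compared within groups of like width. In replicate 2, every one of the 263 met a single region, and in replicate 1, 261 met a single region and 2 met a pair. None of the replicate 1 regions met, and 1 of the replicate 2 regions, was 5000 bp or wider. This is a description, since the strong regions were chosen as narrower than that in a list from the same libraries, as far as the labels show.

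The edges were placed at nearly the same bases in all 3 lists. The first base differed from that of the series-wide list by a median of 32 bp for replicate 1 and 43 bp for replicate 2. For the last base it was 32 and 41 bp. For the weaker narrow regions that met a single replicate region, the shifts were 61 and 99 bp at the first base and 65 and 91 bp at the last. Both edges lay within 200 bp of the series-wide ones in 87.0% of strong regions in replicate 1 and 77.9% in replicate 2, against 64.2 and 55.9% of the weaker ones. Replicate regions were usually the narrower, by a median of 76 bp in replicate 1 and 113 bp in replicate 2 for the strong regions.

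Scores of the strong narrow regions in the replicate lists were high but not always in the top 25% of the list. The replicate 1 scores ran from 1.22 to 2.67 with a median of 1.68, and the replicate 2 scores from 0.888 to 2.34 with a median of 1.41; the lists have scales of their own. In replicate 1, 236 of 263 reached that list's 75th percentile (1.45), and in replicate 2, 185 of 263 reached theirs (1.31). Of the weaker narrow regions that met the list, 22 of 2117 (1.04%) did so in replicate 1 and 9 of 1862 (0.48%) in replicate 2. These counts are a description, since the sets were divided by a score from the same libraries, as far as the labels show. Of the 263, 178 passed both thresholds, 58 that of replicate 1 alone, 7 that of replicate 2 alone and 20 neither. The lowest ranks were percentile 64.1 in replicate 1 and percentile 50.5 in replicate 2. The replicate 2 value belongs to a region of 4689 bp that starts at 21930696 on 3R. The strong region it met there, from 21932282 to 21935392, is narrower, at 3111 bp. The 2 replicate scores rose together (Spearman's rho 0.84 over 263 strong regions and 0.84 over 1689 weaker ones), a description across regions that share their libraries and the series-wide selection.

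**Figure D2:**
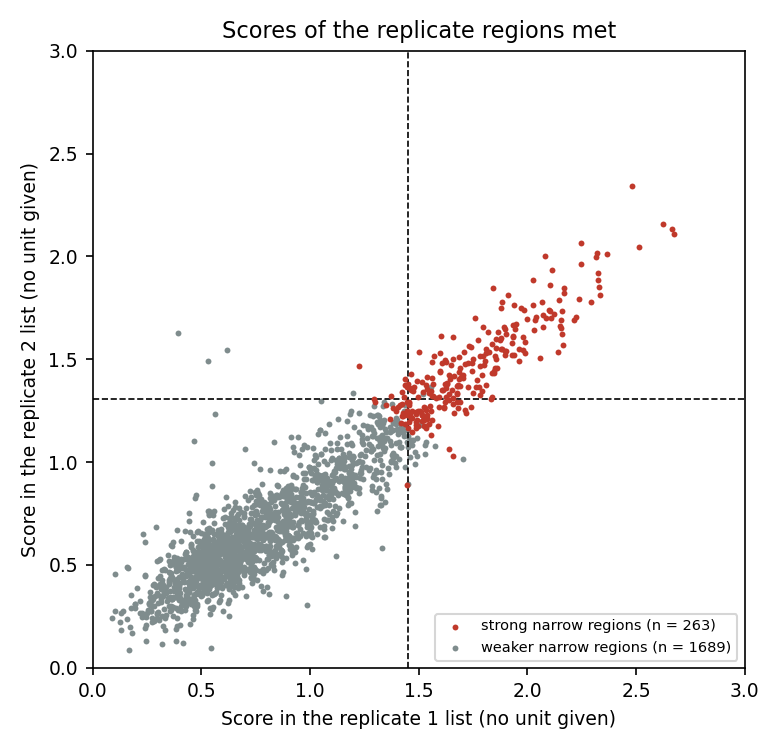
Score in the replicate 1 list (horizontal) against score in the replicate 2 list (vertical), no unit given, for the 263 strong narrow regions (red) and the 1689 weaker narrow regions (grey) that met both lists. Dashed lines are the 75th percentiles of the lists, 1.45 and 1.31, and 178 strong regions lie beyond both.

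Selection in one replicate was also set against the list of the other, whose values the selection had not used. The same rule picked 321 regions in replicate 1. All 321 (95% Wilson interval from 98.8%) overlapped a replicate 2 region, against 81.7% of the weaker narrow regions of replicate 1 and 89.5% of all its regions. Width was not matched here, and in the series-wide list the share of weaker regions in both replicates rose with width. A replicate 2 score in the top 25% was found for 222 of the 321 (69.2%, 63.9 to 74.0%), against 2.33% of the weaker narrow regions and 24.7% of all. By the full rule, 202 (62.9%) were strong and narrow in replicate 2 as well. For 33 of the 321, the replicate 2 region met was wider than the range. Among the replicate 2 scores of all 321, the median rank was percentile 80.6 and the lowest was percentile 56.6.

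In the other direction, the rule picked 249 regions in replicate 2. Of these, 246 (98.8%, 96.5 to 99.6%) overlapped a replicate 1 region, against 91.7% of its weaker narrow regions and 95.3% of all its regions. In replicate 1, 233 (93.6%, 89.8 to 96.0%) were in the top 25% by score, against 5.24% of the weaker narrow regions and 28.4% of all. By the full rule, 201 (80.7%) were strong and narrow there. For 37 of the 249, the replicate 1 region met was wider than the range. In this direction, too, the shares were not compared within groups of like width, and they were not tested.

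The 3 strong narrow regions of replicate 2 without a replicate 1 region lay in 2 places; they are named because they are so few, after their values were seen. A pair was on 2L, from 21464014 to 21466012 (score 1.50) and from 21469051 to 21471051 (1.39), 3038 bp apart and 68.8 kb before the region on that arm that met neither replicate. In the series-wide list they scored 1.26 and 1.21, just under the threshold. The other was on the unplaced sequence U from 9750506 to 9752315 (1.44), with a series-wide score of 0.846. None of the 3 was wider than 2001 bp.

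By chromosome, the strong narrow regions were most frequent on the X and least frequent on 3L among the 5 large arms. On the X there were 65, or 12.5% (95% Wilson interval 9.91 to 15.6%) of the 521 regions of that width range. On 3L there were 35, or 6.47% (4.69 to 8.86%) of 541. The other arms lay between, with 43 on 2L (8.67% of 496), 55 on 2R (9.60% of 573) and 59 on 3R (9.10% of 648), and their intervals overlapped one another and those of the X and 3L. The intervals of the X and 3L did not overlap, but these arms were picked as the highest and lowest of the 5. The arm shares were not adjusted for width. Per Mb of sequence this was 2.90 on the X and 1.43 on 3L, while weaker narrow regions had similar densities of 20.3 per Mb on the X and 20.6 on 3L. The X and 3L were also the extremes in each replicate list. There the share was 13.1% on the X and 7.39% on 3L in replicate 1, and 12.5 and 5.78% in replicate 2, or 12.8 ± 0.423% on the X and 6.59 ± 1.14% on 3L (mean ± SD, n = 2).

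**Figure D3:**
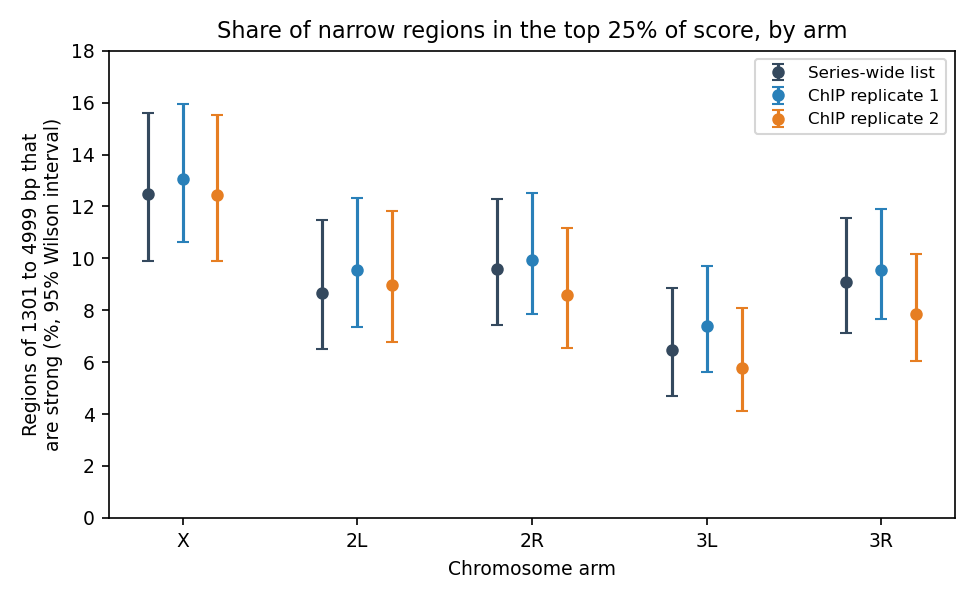
Percentage of the enriched regions over 1300 and under 5000 bp wide that reached the 75th percentile of score, for each large arm, in the series-wide list and in each ChIP replicate list. Points are shares and bars are 95% Wilson intervals; the X is highest and 3L lowest in all 3 lists.

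As a share of all strong narrow regions, the X held 24.6% (65 of 264, 19.8 to 30.2%), against 17.6% (456 of 2593, 16.2 to 19.1%) of the weaker narrow regions and 18.9% of all enriched regions. Among regions wider than the range that passed the same score threshold, 19.3% (206 of 1065, 17.1 to 21.8%) were on the X. Selecting in replicate 1 alone gave 24.9% of strong and 18.2% of weaker narrow regions, and in replicate 2 alone 26.5 and 17.9%. The difference within each replicate list averaged 7.65 ± 1.38 percentage points (mean ± SD, n = 2). An exact two-sided permutation test that flips the signs of the 2 differences gave p = 0.5, the smallest it can give with 2 replicates. The direction was the same in each width group with more than 1 strong region, but the intervals overlapped. The X held 24.4% of strong and 16.6% of weaker regions in the group from 2000 bp, 24.8 and 20.9% in that from 3000 bp, and 24.8 and 19.9% in that from 4000 bp.

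Divided by score, the largest step in the share on the X lay at the bottom of the list and not at the threshold. Of the narrow regions in the lowest 25% of score, 12.2% (10.4 to 14.3%) were on the X. It was 21.9% between the 25th and 50th percentiles and 20.0% up to the 75th. Between the 75th and 90th percentiles it was 22.3% (16.9 to 28.8%), and in the top 10% of score it was 30.0% (24 of 80, 21.1 to 40.8%). The lowest 25% was also low in replicate 1 (11.8%) and in replicate 2 (13.1%). The interval of the strong narrow regions thus lies above that of the lowest band and overlaps those of the 2 bands between.

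Outside the large arms the strong narrow regions were few. Chromosome 4, the small dot chromosome, held 3 of 37 narrow regions (8.11%, 2.80 to 21.3%), close to the 9.24% of all narrow regions. They were from 885178 to 888078 (score 1.40), from 462650 to 465250 (1.39) and from 328042 to 331318 (1.26). All 3 were covered to at least 90% in both replicates, with replicate 1 scores of 1.49, 1.44 and 1.30 and replicate 2 scores of 1.39, 1.38 and 1.31.

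The 6 heterochromatic scaffolds together held 25 regions of that width range, and 1 of them was strong. It was the single enriched region of YHet, a scaffold from the Y chromosome, from 304600 to 307748, with a series-wide score of 1.56 and replicate scores of 1.57 and 1.52. The sex of the larvae is not given in the labels.

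On U, which collects sequence not placed on a chromosome, 3 of 16 narrow regions were strong, and their scores were among the highest. The region from 7541886 to 7544714 scored 2.38, with 2.67 in replicate 1 and 2.14 in replicate 2. The region from 6383938 to 6387354 scored 2.10 (2.51 and 2.05 in the replicates), and that from 5541082 to 5543334 scored 2.02 (2.24 and 1.79). Each was covered to at least 79% in both replicates. How uniquely reads map to this sequence is not known from region lists.

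Spacing of the strong narrow regions is given here by arm, with no comparison between arms tested. The median gap to the nearest enriched region was 2749 bp on 2L, 2047 bp on 3R, 1965 bp on 2R, 1657 bp on the X and 1385 bp on 3L. A neighbour within 2000 bp was present for 46.5% of those on 2L, 49.2% on 3R, 50.9% on 2R, 56.9% on the X and 57.1% on 3L. No region was within 10000 bp of 9 of 43 on 2L and 11 of 59 on 3R, against 5 of 55 on 2R, 3 of 65 on the X and 2 of 35 on 3L. Over all enriched regions with a neighbour on their sequence, 10.2% had none within 10000 bp and 63.2% had one within 2000 bp. The spacing of other enriched regions was not computed by arm, so these values may describe the arms and not the strong regions. Median scores were alike, between 1.46 on 2R and 1.53 on the X and 3L.

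Along the large arms, the strong narrow regions were scattered. Of 122 blocks of 1 Mb, 28 held none, 20 held 1, 28 held 2 and the median was 2. The fullest block was on the X from 1000001 to 2000000, with 9 strong among 62 enriched regions, followed by 2L from 10000001 to 11000000 and 3R from 5000001 to 6000000 with 6 each; these were picked as the extremes. The 2 Mb nearest the centromere of each arm held 21 of 257 strong regions (8.17%, 5.41 to 12.2%) and 140 of 2522 weaker ones (5.55%, 4.72 to 6.51%), intervals that overlap. The 2 Mb at the other end held 30 of 257 strong (11.7%, 8.30 to 16.2%) and 225 of 2522 weaker regions (8.92%, 7.87 to 10.1%), which also overlap. No strong narrow region lay in the centromere-proximal 2 Mb of 3L, which held 17 weaker ones, while those of the X held 6 strong and 17 weaker ones. These arms were picked as the extremes and the counts are small. Over the whole arms the strong share was 6.47% on 3L and 12.5% on the X.

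Strong narrow regions stood somewhat farther from their neighbours than weaker ones of the same widths. The gap to the nearest enriched region had a median of 1889 bp (quartiles 529 and 4878 bp, 263 regions with a neighbour on their sequence), against 1143 bp (361 and 3891 bp) for the weaker narrow regions. A neighbour within 2000 bp was present for 51.7% (136 of 263, 45.7 to 57.7%), against 62.1% (60.2 to 63.9%) of the weaker ones and 63.2% of all enriched regions. The same was seen when each replicate list was used alone. The median gap was 1937 bp for strong and 1306 bp for weaker regions in replicate 1, and 2179 and 1550 bp in replicate 2, or 2058 ± 171 bp and 1428 ± 173 bp (mean ± SD, n = 2). For the share with a neighbour within 2000 bp, the values were 50.9% for strong and 60.0% for weaker regions in replicate 1, and 48.8 and 55.6% in replicate 2. The difference averaged -7.93 ± 1.63 percentage points (mean ± SD, n = 2), with p = 0.5 in the same exact permutation test. Joining regions within 500 bp of each other before the selection changed the series-wide difference to -5.62 percentage points (65 of 165 strong and 871 of 1935 weaker regions), against -10.3 points without joining. In the series-wide list the order held in each width group with more than 1 strong region. The medians were 2393 against 1131 bp in the group from 2000 bp, 1627 against 1085 bp in that from 3000 bp, and 1683 against 1006 bp in that from 4000 bp.

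**Figure D4:**
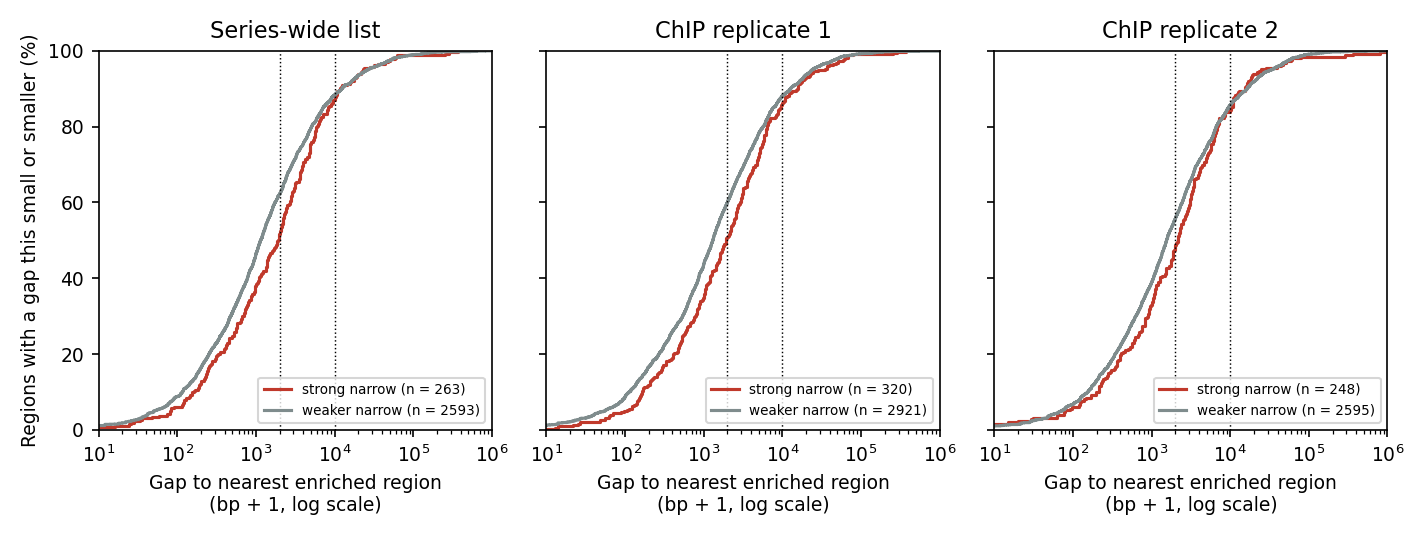
Cumulative percentage of regions by the gap to the nearest enriched region (bp plus 1, log scale) for strong (red) and weaker (grey) narrow regions, in the series-wide list and in each replicate list with the rule applied to that list. Dotted lines mark 2000 and 10000 bp; the red curve lies to the right of the grey one at 2000 bp in all 3 panels and close to it at 10000 bp.

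Among the highest scores of the series-wide list the share with a near neighbour was not lower. Between the 75th and 90th percentiles of score, 47.5% (40.4 to 54.8%) of the 183 narrow regions with a neighbour had one within 2000 bp, while in the top 10% it was 61.3% (49 of 80, 50.3 to 71.2%). With the threshold at the 90th percentile, strong regions at 61.3% and weaker ones at 61.1% had nearly the same share. In replicate 1 the top 10% had 52.9%, against 60.0% of the weaker narrow regions, and in replicate 2 it had 54.1%, against 55.6%. The interval of the top 10% held the weaker regions' share in both replicates. These bands were added after the alternative threshold had been tried.

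**Figure D5:**
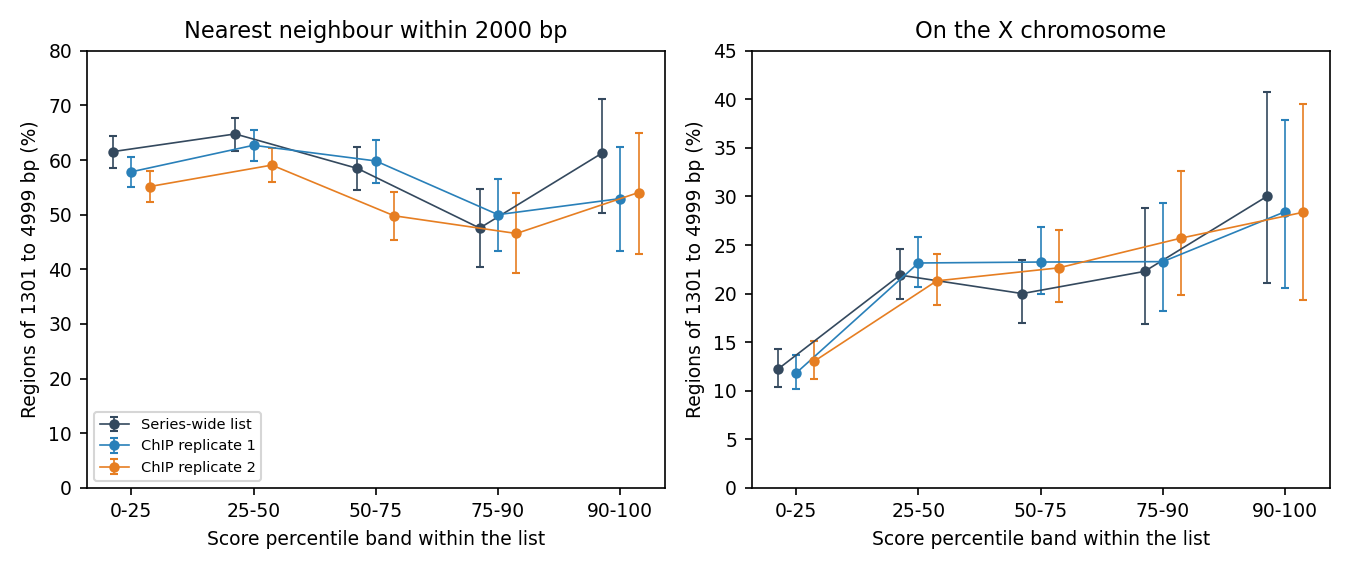
Regions over 1300 and under 5000 bp wide divided into 5 bands by score percentile within each list: the percentage with an enriched neighbour within 2000 bp (left) and the percentage on the X (right), with 95% Wilson intervals. On the left the 75-90 band is the lowest of the series-wide list at 47.5%; on the right the 0-25 band is the lowest at 12.2%.

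Over longer distances the shares of strong and weaker narrow regions overlapped. No enriched region lay within 10000 bp of 34 of 263 (12.9%, 9.40 to 17.5%), against 304 of 2593 weaker ones (11.7%, 10.5 to 13.0%) and 10.2% of all enriched regions. Within 25 kb on either side, a median of 36.1% of the sequence was covered by other enriched regions around strong and 36.9% around weaker narrow regions of the large arms. The 5 most isolated were the 3 on U, at 254 to 368 kb from a neighbour, then the one on chromosome 4 from 885178 (61.8 kb) and one on 2L from 15333322 to 15336420 (60.7 kb, score 1.34). The replicate 1 list covered 98.5% of the last one and the replicate 2 list 95.3%.

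The neighbours themselves mostly scored lower, a consequence of the selection. The nearest neighbour of a strong narrow region had a median score of 1.01 and a median width of 4359 bp, against 0.651 and 3365 bp for the weaker narrow regions, and in 45 of 263 cases (17.1%) it scored above the strong region itself. It was wider than the range in 113 of 263 (43.0%, 37.1 to 49.0%), against 35.8% (34.0 to 37.7%) for the weaker ones. In 19 (7.22%, 4.67 to 11%) it was another strong narrow region, against 4.05% (3.36 to 4.88%). Of all 5331 enriched regions, 2049 were wider than the range and 4.95% were strong and narrow. The latter share lies inside the interval of the strong regions. Along the lists, 19 pairs of strong narrow regions followed each other with nothing between, 4 of them within 2000 bp. The closest pair lay on 3R, where the region from 1305678 to 1310454 (score 2.15) was 117 bp from that of 1310572 to 1314062 (1.72).

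Widths also depend on where neighbouring regions were divided. If regions up to 500 bp apart are joined, 204 of 264 strong regions (77.3%, 71.8 to 81.9%) remain under 5000 bp, and 131 (49.6%) remain so at 2000 bp. For the weaker narrow regions the shares were 75.5% and 43.5%.

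The 10 highest-scoring strong narrow regions came from 6 sequences and were above the 75th percentile of both replicate lists. The first was on the X from 6634854 to 6639062, which scored 2.40 (2.48 in replicate 1 and 2.34 in replicate 2). It ranked 7 of all regions in the series-wide list and 4 in replicate 2. The second and the ninth were the U regions given above. Next was 3R from 5459662 to 5464102, with a score of 2.36 and 2.67 in replicate 1, the highest of that list; it was 91 bp from its nearest neighbour on one side and 38.8 kb on the other. Then came 2R from 18685758 to 18690198 (2.35, ranks 4 and 22 in replicates 1 and 2). It lay 1057 bp from one neighbour and 57.3 kb from the other.

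The other 5 scored between 2.09 and 2.17. On 3R these were the regions from 19754798 to 19758020 (2.17), with neighbours at 735 and 929 bp, and from 1305678 to 1310454 (2.15), the first of the closest pair. On 2L the region from 10839054 to 10843308 scored 2.13, with its upstream neighbour 68.6 kb away. On the X the region from 1263806 to 1267808 scored 2.11, and on 3L that from 5144908 to 5148270 scored 2.09. In all 5, scores were between 2.25 and 2.37 in replicate 1 and between 1.92 and 2.07 in replicate 2, above the 75th percentile of each list. Of the 10, only the U region from 6383938 was covered to less than 95% in a replicate, with 79.2% in replicate 1 and 90.8% in replicate 2.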

How the data were processed

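Reads were aligned with Bowtie 0.12.7, per the submitters' processing notes, to FlyBase release 5, per the file headers. Not given in the sources used here are the region caller, its threshold, the use of the input and the way in which replicates were combined. The authors deposited 3 region lists (1 per ChIP replicate and 1 for the series), each with first and last base and a score without a unit. Entries named depleted (7 in the series-wide list, 2 in replicate 1, 0 in replicate 2) were left out. In the series-wide list every first and last base was an even number. Widths, gaps between neighbouring regions and overlaps of at least 1 bp were computed with Python 3.11.15, numpy 2.4.6, pandas 2.3.3 and scipy 1.17.1, and drawn with matplotlib 3.10.9. The code was tested on 5 simulated lists, and in 5 of 5 it equalled a base-by-base count. Intervals on shares are 95% Wilson intervals, for counting error over regions. Regions are not replicates, so shares of regions carry no p-value. Differences within each replicate list were tested with an exact sign-flip permutation test, which cannot go below p = 0.5 with 2 replicates. Depth is unknown. Regions and comparisons were chosen with earlier results of these data known. Named are the 10 highest scores, the 5 largest gaps, the 3 regions on each side of the threshold, all on chromosome 4, U or heterochromatin, and all absent from a replicate. Alternatives were other score thresholds and widths, stricter overlap, single replicates, large arms alone, neighbours of 1300 bp or less left out and joined regions.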

Additional observations from a re-analysis of the deposited data

Results flagged for a closer look

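Signal in regions too narrow for the width range was flagged because no comparison described their values. In the series-wide list 4 regions of 1300 bp or less also reached the score threshold. They were on the X from 2965030 to 2966030 (score 3.08, the highest of the list), on 2RHet from 1427960 to 1428962 (2.39), on U from 9711686 to 9712794 (1.60) and on 2L from 7983040 to 7984050 (1.38). None of the 4 met a region of either replicate list. No series-wide region of 1300 bp or less met both lists, whatever its score, so absence from at least one list is not particular to the 4. How many of the others met neither list was not examined. Those lists hold 0 regions of 1300 bp or less, against 425 in the series-wide list. Why no wider replicate region overlapped any of the 4 was not tested.

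The 3 strong narrow regions on the unplaced sequence U were flagged because that sequence enters no comparison between arms. Their scores of 2.38, 2.10 and 2.02 place all 3 among the 16 highest of the 264.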

How the results depend on the processing

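The share of strong narrow regions on the X (24.6%) stayed between 22.8 and 30.0% under 8 alternatives, and its excess over the weaker narrow regions (7.04 percentage points) between 6.08 and 12.1. Single width groups were not among these alternatives, and from 3000 bp up the excess there was below that range. The X held 24.8% of strong and 20.9% of weaker regions in the group from 3000 bp, and 24.8 and 19.9% in that from 4000 bp. In the group from 2000 bp it was 24.4 and 16.6%. The share with a neighbour within 2000 bp (51.7%, 10.3 points below the weaker regions) was 61.3% at the 90th percentile of score, where the difference reversed to 0.155 points, and 39.4% once regions within 500 bp were joined, where the difference was smaller, at -5.62 points. The small difference in isolation beyond 10000 bp (1.20 points) reversed at the 90th percentile (-1.89) and after joining (-0.381). Presence in both replicates was 100% at the 90th percentile, for widths from 2000 to under 4000 and to under 5000 bp, and for selection in replicate 1 looked up in replicate 2, and fell to 87.9% where 90% of the length had to be covered. Its excess over the weaker regions (34.5 points) was 15.7 from 2000 to under 4000 bp, 13.4 from 2000 to under 5000 bp, 40.6 with the percentile taken within the width range, 37.5 and 60.7 with 50% and 90% coverage, 18.3 for replicate 1 looked up in replicate 2 and 7.12 the other way. The values looked up in the other replicate count overlap with that list only, a different measure from presence in both lists. The ranges from 2000 bp leave out the weaker regions under 2000 bp, of which 23.1% met both lists. The cause of the shifts was not tested. Joining, the replicate block, the range from 2000 to under 5000 bp and the score bands were chosen after seeing the data. With the replicate block, the differences were 7.65 points for the X, -7.93 for neighbours within 2000 bp and 1.63 for isolation beyond 10000 bp, in the directions of the series-wide list.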

Other observations

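Among the weaker narrow regions, 3 met a region with a score in the top 25% in one replicate and below the median in the other. In all 3 the high value was in replicate 2. A replicate score is that of the highest-scoring region sharing at least 1 bp, so it need not describe the same stretch. They lay on 2R from 14195288 to 14197608 (0.531 in replicate 1 and 1.49 in replicate 2), on 2R from 15319832 to 15321948 (0.391 and 1.63) and on the X from 1747338 to 1749538 (0.618 and 1.54). Each was within 39 bp of another enriched region of the series-wide list, with gaps of 7, 39 and 39 bp. How much of each was covered by the high-scoring replicate 2 region was not examined, and they were singled out after their values were seen.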
